A study of Mus musculus with 8 samples.

Results

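The 26S proteasome degrades proteins that carry ubiquitin chains, and the genes of its subunits were followed here in macrophages given either the amyloid-forming or the control form of a pancreatic peptide. Members were all array probes whose platform gene symbol starts with Psma, Psmb, Psmc, Psmd, Psme or Psmf, which gave 63 of 25697 probes and 42 genes. Of these, 40 genes encode subunits, assembly chaperones or activators of the proteasome. Psmc3ip and Psme3ip1 share the prefix but encode binding partners that are not subunits, and they were kept apart. A detection filter left 40 of the 42 genes for testing, among 7809 genes in all. Psma1 and Psma6 were undetected on all 8 arrays and were not tested. No probe on the array carried the names Psmd3, Psmf1, Psma8 or Psmb11.

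RNA came from bone marrow-derived macrophages of C57BL/6 mice, grown for 7 days with 10% serum and 15% L929-conditioned medium, which supplies macrophage growth factor, and then kept without the conditioned medium for 12 hours. Of 8 culture wells from 1 experiment, 4 received rat islet amyloid polypeptide (IAPP, or amylin, a hormone co-secreted with insulin) and 4 received human IAPP, and RNA was taken at 12 hours. The human peptide aggregates into amyloid and the rat peptide does not readily do so. The dose was 15 µM in the titles and the design text, whereas the treatment protocol gives the same figure in millimolar. Rat IAPP wells served as the control, and no untreated wells were among the samples, so every difference below is human minus rat IAPP. Aggregation and peptide sequence cannot be told apart as sources of a difference. Because all wells come from 1 experiment, p-values reflect only well-to-well spread and may be technical in origin.

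The proteasome consists of a barrel-shaped core particle, built of alpha and beta rings, and a cap that recognises, unfolds and feeds in ubiquitinated substrates. Only the beta subunits Psmb5, Psmb6 and Psmb7 carry the proteolytic sites of the constitutive core, and in immune cells they can be exchanged for the immunosubunits Psmb8, Psmb9 and Psmb10, which favours peptides suited to MHC class I presentation. Interferon-driven factors are known to raise the immunosubunits, while the transcription factor encoded by Nfe2l1 is known in mammalian cells to raise the constitutive subunits together when proteasome capacity is short.

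Promoters of 5 genes are shown because they belong to a constitutive subunit and an immunosubunit that moved apart (Psmb6 and Psmb9), to a pair that gave no clear difference (Psmb5 and Psmb8), and to Psmd12, the cap gene with the smallest p. Each is read 5′ to 3′ on the gene's strand and ends at the base before the RefSeq start, in build GRCm38.p6. Capitals mark matches to one of the motifs described after them.
Psmb6, chr11:70525257-70525356, plus strand: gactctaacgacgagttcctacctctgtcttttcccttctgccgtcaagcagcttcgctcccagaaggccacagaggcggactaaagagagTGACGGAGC
Psmb5, chr14:54617996-54618095, minus strand: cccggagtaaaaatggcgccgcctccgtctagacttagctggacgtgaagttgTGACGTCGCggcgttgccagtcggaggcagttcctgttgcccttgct
Psmb9, chr17:34187331-34187430, minus strand: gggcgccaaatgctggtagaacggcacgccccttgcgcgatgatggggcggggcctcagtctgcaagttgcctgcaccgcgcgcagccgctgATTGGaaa
Psmb8, chr17:34198095-34198194, plus strand: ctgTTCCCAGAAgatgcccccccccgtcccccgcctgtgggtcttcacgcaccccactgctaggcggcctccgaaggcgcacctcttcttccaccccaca
Psmd12, chr11:107479278-107479527, plus strand: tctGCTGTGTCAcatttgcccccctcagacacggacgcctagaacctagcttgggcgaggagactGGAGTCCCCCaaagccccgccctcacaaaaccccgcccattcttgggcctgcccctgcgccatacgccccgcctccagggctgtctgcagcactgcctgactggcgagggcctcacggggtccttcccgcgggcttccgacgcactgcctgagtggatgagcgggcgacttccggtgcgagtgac

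The capitals in Psmb6 (bases -9 to -1 from the start) and Psmb5 (-47 to -39) match TGACNNNGC, the core of the antioxidant response element, to which factors of the Nfe2l1 and Nfe2l2 family bind. Psmd12 holds that core on the opposite strand at -247 to -239, and a match to the κB consensus at -185 to -176. The capitals in Psmb8 at -97 to -89 match the STAT dimer site TTCNNNGAA, and those in Psmb9 at -8 to -4 the CCAAT box, read as ATTGG. Both strands were searched, and the Psmd12 matches overlap no other motif. Promoter windows of 250 bases before to 50 after the start were on hand for 35 of the 40 subunit, chaperone and activator genes, as 38 windows, and were missing for Psmb1, Psmb2, Psmb7, Psmc3 and Psmd7. The antioxidant core was in 15.8% of the 38 windows and 12.4% of all 32851 windows of the same length, and the CCAAT box in 34.2% and 37.4%. The interferon-stimulated response element core was in 10.5% against 3.44%, the κB consensus in 15.8% against 8.46%, and the STAT site in 5.26% against 8.30%. These member shares rest on 4, 6 and 2 windows. The interferon core was found for Psmb3, Psmd4, Psmd9 and Psme1, none of them called. None of the 3 immunosubunit windows held the interferon-stimulated response element core. The window of Psmd8, which showed the largest fold among the members, held none of the 5 motifs. These letters are matches only and mark no bound site.

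Among the 40 tested genes, 15 rose and 6 fell with human IAPP, so 52.5% were called by limma at an adjusted p under 0.05. Across all 7809 genes the share called was 56.4%, with 23.8% higher and 32.5% lower. The called share of the members was thus near that of all genes, whereas the split ran 37.5% higher and 15% lower. The median log2 difference of the 40 was 0.14, against -0.06 over all genes, and 27 of 40 lay above 0 (67.5%, against 45.2% of all genes). Changes were small: 5 members were called and differed by at least 1.5-fold (12.5%), where 27.1% of all genes did. Human and rat wells did not overlap for 16 members that were higher and 7 that were lower, 57.5% of the members. Among all genes 51.3% were so separated, 21.6% higher and 29.7% lower.

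The split of calls depended on the scaling. With the authors' rescaled values 23 members were higher and 2 lower, where 55.8% of all genes were called. Scaling of arrays to a common median over all probes, of which 42.1% to 47.6% were detected per array, left Psmb6, Psmd8 and Psmd12 higher and Psmb1, Psmb9, Psme4 and Psmc3ip lower, 3 against 4 calls. That scaling moved the median of all genes to -0.40. Relative to the median of all genes, the median of the 38 subunit, chaperone and activator genes lay between 0.14 and 0.27 under all settings tried. Members were brighter than most genes: 33 of the 40 lay above the all-gene median level of 9.50, with a median of 12.19. Comparisons with all genes were not matched for level, and the part of level in them was not tested. On the authors' rescaled values some differences kept their call but moved by more than 1.5 times, to -0.22 for Psmb1, 0.47 for Psmb2, 0.41 for Psmb7, 0.31 for Psmd1, 0.50 for Psmd13 and 0.39 for Psmd7.

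**Figure D1:**
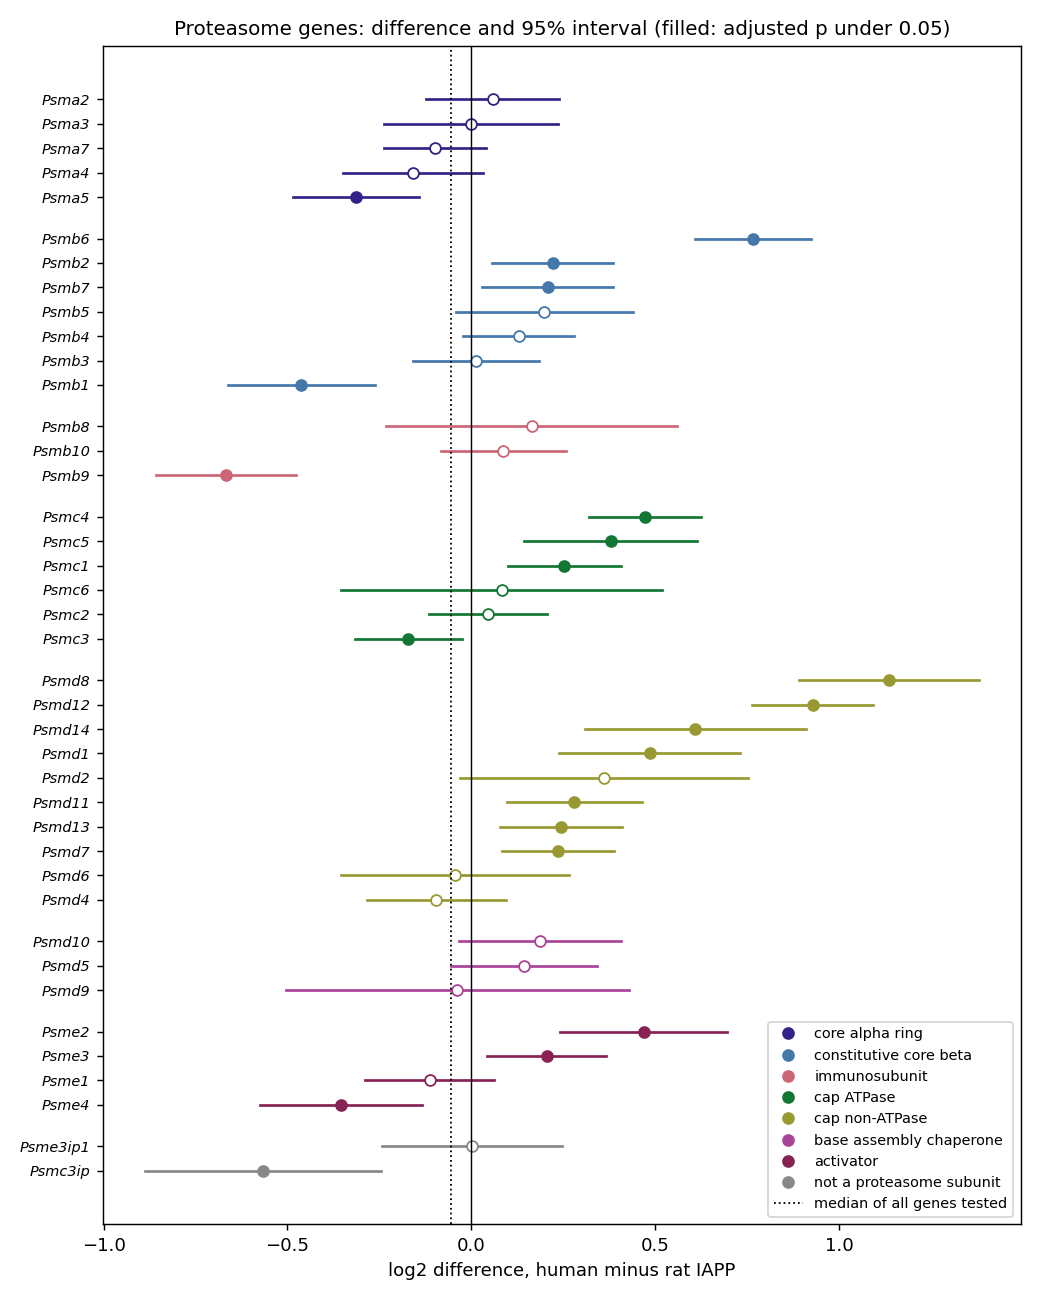
Log2 difference, human minus rat IAPP, of each tested member, grouped by its place in the proteasome, with points for genes (filled where called), bars for the 95% interval and the dotted line for the median of all genes tested. Cap subunits lie mostly to the right of 0, although median scaling puts the medians of both cap classes below it, whereas the core holds both Psmb6 at 0.77 and Psmb9 at -0.67.

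Core particle genes moved in both directions, with 3 of 15 higher, 3 lower and a median of 0.06. Their called share was 40%, where 56.4% of all genes were called. In the alpha ring, which forms the gated entrance of the core, 5 genes were tested, 1 fell and none rose. Its called share was 20% and its median -0.10. Psma5 read 14.05, 13.95, 14.06 and 13.86 in the rat wells and 13.73, 13.59, 13.64 and 13.73 in the human wells, all in log2 units of normalised intensity, as are the well values below. All human wells lay below all rat wells. Psma5 was 1.24-fold lower, with a fitted log2 difference of -0.31 (limma adjusted p = 0.0061, SE 0.076, n = 4 per group). On the authors' rescaled values Psma5 was no longer called, with a difference of -0.01 (adjusted p = 0.86). Psma7 read 12.70, 12.75, 12.68 and 12.75 with rat IAPP and 12.62, 12.66, 12.61 and 12.60 with human IAPP. Its wells did not overlap either, yet the difference of -0.10 was not called (limma adjusted p = 0.20). Psma4 read 13.72, 13.63, 13.84 and 13.52 with rat IAPP and 13.55, 13.56, 13.55 and 13.42 with human IAPP, so the groups overlapped. Its difference of -0.16 was not called (limma adjusted p = 0.14), but it was -0.21 and called without rat replicate 4 (adjusted p = 0.039). Psma2 read 14.67, 14.76, 14.80 and 14.57 with rat IAPP and 14.73, 14.65, 14.80 and 14.85 with human IAPP. These wells were interleaved, and neither Psma2 (0.06) nor Psma3 (-0.00) was called. On the authors' rescaled values both were called higher, at 0.39 and 0.31 (limma adjusted p = 7.1e-05 and 0.0022).

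Of the 7 constitutive beta subunit genes, 3 rose and 1 fell, with a median of 0.20. That called share, 57.1%, is near the 56.4% of all genes. Psmb6 encodes the subunit with caspase-like activity. It read 13.29, 13.38, 13.23 and 13.27 in the rat wells and 13.97, 14.05, 14.09 and 14.13 in the human wells. Every human well lay above every rat well, and Psmb6 rose 1.70-fold (log2 difference 0.77, SE 0.070, limma adjusted p = 1.7e-05, n = 4 per group). Psmb7, the subunit with trypsin-like activity, read 12.80, 12.84, 12.85 and 12.61 with rat IAPP and 13.03, 12.90, 13.04 and 12.97 with human IAPP. Human wells all lay above rat wells, and the difference of 0.21 was called (SE 0.079, limma adjusted p = 0.048). That call was lost when any single array other than rat replicate 3 was left out (adjusted p between 0.053 and 0.11). In the fit over all probes the other 2 Psmb7 probes gave 0.45 and 0.27 and were called. The brightest probe, used above, was not called in that fit (limma adjusted p = 0.0545). Psmb5, the subunit with chymotrypsin-like activity, read 12.08, 11.94, 11.82 and 12.32 with rat IAPP and 12.16, 12.26, 12.28 and 12.25 with human IAPP. Rat replicate 4 lay above all human wells and the other 3 rat wells below them. The difference of 0.20 was not called (95% interval -0.04 to 0.44, limma adjusted p = 0.14), and without rat replicate 4 it was 0.29 and called (adjusted p = 0.012).

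Among the beta subunits without a proteolytic site, Psmb1 moved the other way. It read 13.32, 13.31, 13.30 and 13.09 with rat IAPP and 12.81, 12.67, 12.96 and 12.73 with human IAPP. No human well reached the lowest rat well, and Psmb1 was 1.38-fold lower (log2 difference -0.46, SE 0.089, limma adjusted p = 0.0017, n = 4 per group). Psmb2 read 13.31, 13.42, 13.34 and 13.40 with rat IAPP and 13.67, 13.48, 13.67 and 13.54 with human IAPP, again without overlap. Its difference of 0.22 was called (SE 0.073, limma adjusted p = 0.027) and its second tested probe gave 0.33, also called. Without rat replicate 1 or 3, or human replicate 1 or 3, the Psmb2 call was lost (adjusted p between 0.054 and 0.077). Psmb4 and Psmb3 differed by 0.13 and 0.01 and were not called.

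Of the 3 immunosubunit genes 1 fell and 0 rose, where 32.5% of all genes were lower and 23.8% higher. Psmb9 (LMP2), which replaces Psmb6, was the gene that fell. It read 11.29, 11.49, 11.35 and 11.32 in the rat wells and 10.84, 10.55, 10.73 and 10.66 in the human wells, so the groups were well apart. Its fitted difference was -0.67 (SE 0.085, 95% interval -0.86 to -0.48, n = 4 per group, limma adjusted p = 0.00013), or 1.59-fold lower. Psmb10 (MECL-1), which replaces Psmb7, read 12.22, 12.27, 12.17 and 12.41 with rat IAPP and 12.42, 12.30, 12.34 and 12.35 with human IAPP. The groups overlapped through rat replicate 4, and the difference of 0.09 was not called (95% interval -0.08 to 0.26, limma adjusted p = 0.35). On the authors' rescaled values the Psmb10 difference was 0.26 and called (limma adjusted p = 0.0036).

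Psmb8 (LMP7), which replaces Psmb5, turned on 1 well. It read 9.21, 9.43, 9.12 and 10.03 with rat IAPP and 9.61, 9.64, 9.56 and 9.63 with human IAPP, so rat replicate 4 lay above all human wells and the other rat wells below them. The difference of 0.16 was not called (95% interval -0.23 to 0.56, limma adjusted p = 0.45). Without rat replicate 4 it was 0.36 and called (adjusted p = 0.0060), and against rat replicate 4 as the only rat array it was -0.44 and called (adjusted p = 0.0099). The latter setting was chosen after seeing the data, and it takes the lone rat array to vary as the human arrays do. Rat replicate 4 had the lowest mean raw signal of the rat arrays, 1180 intensity units against 1523 to 1967, a value within the range of the human arrays (1144 to 1368), and its part in the Psmb8 value was not tested further.

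**Figure D2:**
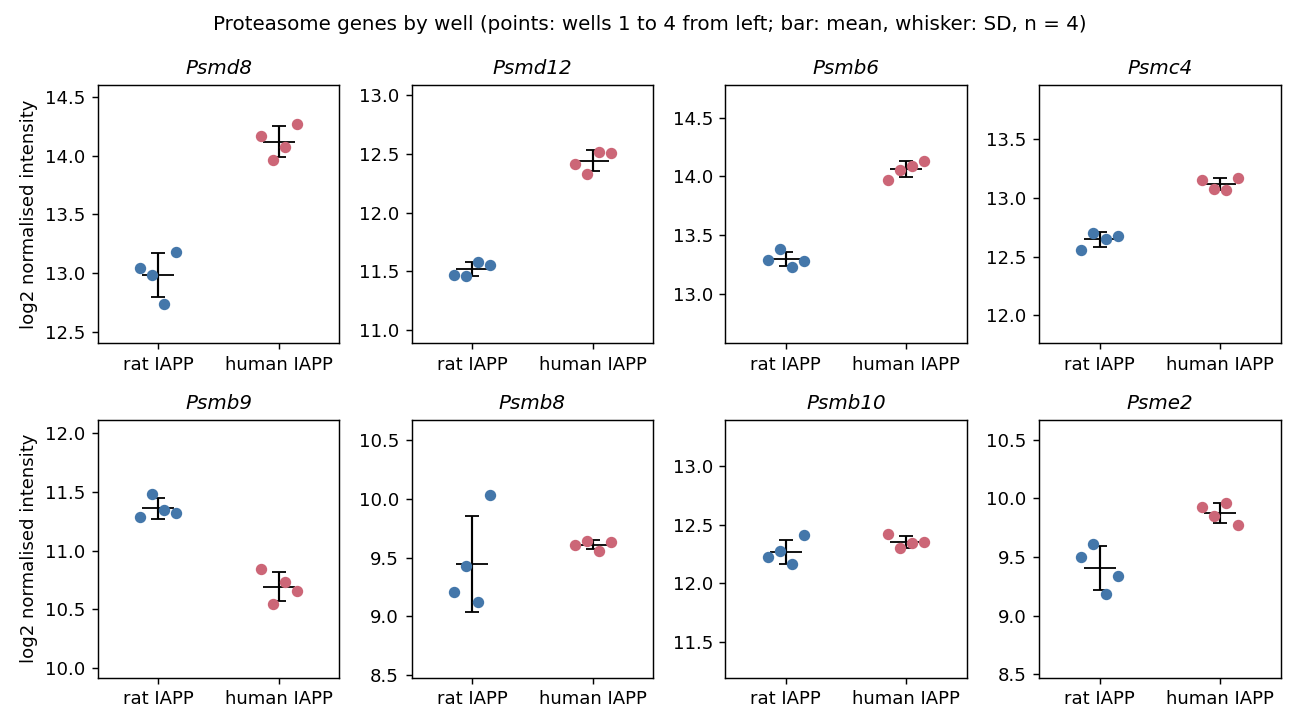
Normalised log2 intensity of selected members in each of the 4 rat IAPP and 4 human IAPP wells, with a point per well, a bar at each group's mean and whiskers for the SD (n = 4). The human wells lie above the rat wells for Psmb6, Psmd8 and Psmd12 and below them for Psmb9, while for Psmb8 rat replicate 4 stands at 10.03, above all human wells.

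Exchange of subunit proteins in assembled cores was not measured. Instead, the ratio of RNA signals, immunosubunit gene to constitutive counterpart, was taken within each well. A single scaling factor per array cancels in this ratio. Background correction and quantile normalisation do not cancel, so the ratio still depends on the processing. The ratio of 2 probes has no absolute meaning, so only its shift from the mean of the rat wells is given. For Psmb9 relative to Psmb6 the log2 shifts were -0.07, 0.04, 0.05 and -0.02 in the rat wells and -1.19, -1.57, -1.43 and -1.54 in the human wells. The ratio was 2.70-fold lower with human IAPP, a log2 difference of -1.43, in 4 of 4 human wells. Over the 15 alternatives in which it was computed, this difference ran from -1.62 to -1.33. The exact two-sided permutation test gave p = 0.0286, the smallest that 4 against 4 wells allow, and 0.0857 after Benjamini-Hochberg adjustment over the 3 pairs. With this number of wells 0.0857 is also the lowest adjusted value that 1 pair can reach alone, so the corrected test could not pass for it.

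The other exchange pairs gave smaller shifts. For Psmb8 relative to Psmb5 the log2 shifts were -0.28, 0.08, -0.10 and 0.30 in the rat wells and 0.04, -0.03, -0.13 and -0.02 in the human wells, and the groups overlapped fully. The difference was -0.03 (exact permutation p = 0.771, adjusted 0.771). For Psmb10 relative to Psmb7 the shifts were -0.07, -0.06, -0.18 and 0.31 with rat IAPP and -0.10, -0.09, -0.19 and -0.11 with human IAPP. The difference of -0.12 (exact permutation p = 0.314, adjusted 0.471) became -0.02 without rat replicate 4, and -0.18 without rat replicate 3 (adjusted exact p = 0.0429).

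**Figure D3:**
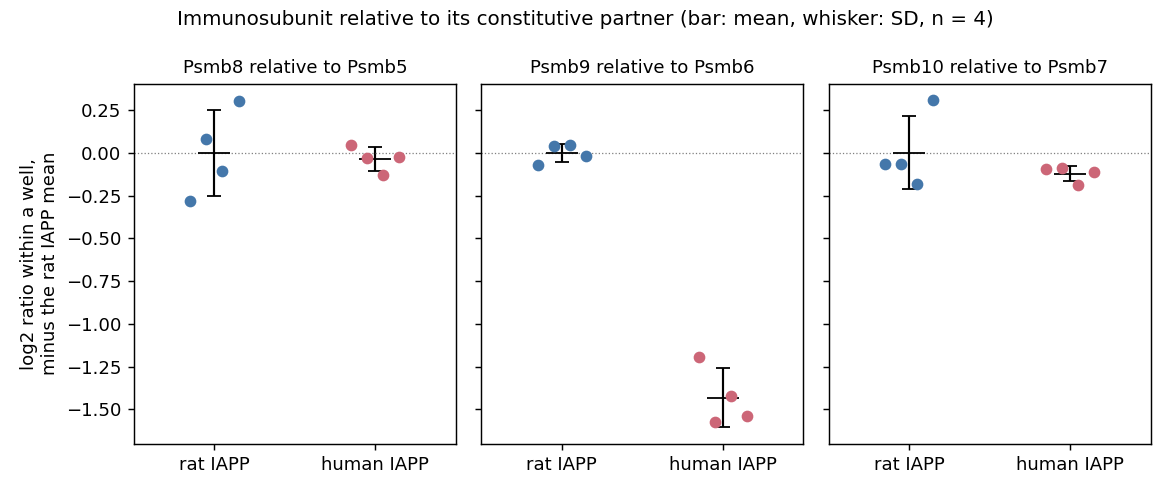
Log2 ratio of RNA signal, each immunosubunit gene over the constitutive gene of its pair, within each well, less the mean of the rat wells. Points are wells, bars the group means and whiskers the SD (n = 4). For Psmb9 over Psmb6 the human wells differ from the rat wells by -1.43 log2 units on average, whereas the wells of the other pairs overlap.

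Of the 16 cap genes 10 were higher and 1 was lower, where 23.8% of all genes were higher and 32.5% lower, and the median log2 difference was 0.27. Under median scaling Psmd8 and Psmd12 were the only cap genes still called, and the medians of the ATPase and non-ATPase genes were -0.11 and -0.03. Of the 6 ATPase genes, whose products form the ring that unfolds substrates, 3 rose and 1 fell, with a median of 0.17. Psmc4 read 12.56, 12.71, 12.65 and 12.67 with rat IAPP and 13.16, 13.08, 13.07 and 13.17 with human IAPP. Every human well was higher than every rat well, and Psmc4 rose 1.39-fold (log2 difference 0.47, SE 0.068, limma adjusted p = 0.00029, n = 4 per group). Psmc5 read 11.77, 11.51, 11.46 and 11.90 with rat IAPP and 12.04, 12.00, 12.12 and 12.00 with human IAPP, without overlap. Its difference of 0.38 was called (SE 0.105, limma adjusted p = 0.012), but a second probe gave 0.09 and was not called.

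Psmc1 read 11.61, 11.52, 11.60 and 11.59 in the rat wells and 11.74, 11.81, 11.87 and 11.91 in the human wells. The groups did not overlap, and the difference was 0.25 (SE 0.068, limma adjusted p = 0.011). Psmc3 was the only cap gene that fell. It read 12.08, 12.04, 12.09 and 12.02 with rat IAPP and 11.88, 11.85, 11.84 and 11.96 with human IAPP, a difference of -0.17 (SE 0.064, limma adjusted p = 0.045). That call was lost without any 1 of rat replicates 1 to 3 or human replicates 1 to 3 (adjusted p between 0.083 and 0.11). It was also lost with cyclic loess (-0.11, adjusted p = 0.19) and on the authors' rescaled values (-0.01, adjusted p = 0.83). Nor was Psmc3 called in the fit over all probes (limma adjusted p = 0.053). Psmc2 and Psmc6 differed by 0.05 and 0.08 and were not called, and the dim Psmc6 probe was detected on 3 rat and 2 human arrays.

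Of the 10 non-ATPase cap genes, 7 rose and none fell, where 23.8% of all genes were higher and 32.5% lower. Their median was 0.32. Relative to the median of all genes this class lay between 0.26 and 0.51 under all settings tried, although median scaling put its own median at -0.03. Psmd8, a lid subunit gene, gave the largest fold of the members. It read 13.04, 12.99, 12.74 and 13.18 in the rat wells and 14.17, 13.96, 14.08 and 14.27 in the human wells. The groups were apart by more than the spread of either, and Psmd8 rose 2.20-fold (log2 difference 1.13, SE 0.109, 95% interval 0.89 to 1.38, limma adjusted p = 2.3e-05, n = 4 per group). Psmd12, another lid scaffold gene, read 11.47, 11.46, 11.58 and 11.56 with rat IAPP and 12.42, 12.33, 12.52 and 12.51 with human IAPP. Its wells were likewise apart, and Psmd12 rose 1.90-fold (log2 difference 0.93, SE 0.073, limma adjusted p = 6.6e-06). A second Psmd12 probe gave 0.77 and was called. Psmd14, the deubiquitinase that strips ubiquitin chains from substrates, read 10.91, 10.47, 10.62 and 10.27 with rat IAPP and 10.99, 11.28, 11.22 and 11.22 with human IAPP. All human wells lay above the rat wells, human replicate 1 and rat replicate 1 being the closest, and Psmd14 rose 1.52-fold (log2 difference 0.61, SE 0.134, limma adjusted p = 0.0036).

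The other non-ATPase cap genes rose less on their brightest probes or were not called. Psmd11, a lid scaffold gene, rose by a log2 difference of 0.28 (SE 0.082, limma adjusted p = 0.016), and its second tested probe gave 0.86. The lid genes Psmd13 and Psmd7 rose by 0.24 and 0.23, with limma adjusted p of 0.019 and 0.015. A second Psmd7 probe gave 0.19 and was not called, and leaving out rat replicate 1 or human replicate 4 ended the Psmd13 call (adjusted p = 0.051 and 0.052). Psmd6, the remaining lid gene measured, differed by -0.04 and was not called. In a split made after the values were seen, 6 of the 7 lid genes and 1 of the 3 non-ATPase base genes rose. Among all genes 23.8% were higher, and a split chosen this way is description only. Among base subunits Psmd1, a scaffold, read 8.92, 8.84, 8.44 and 8.75 with rat IAPP and 9.18, 9.25, 9.12 and 9.33 with human IAPP. Rat and human wells stayed apart, and Psmd1 rose 1.40-fold (log2 difference 0.48, SE 0.109, limma adjusted p = 0.0041). Psmd2, the other large scaffold, differed by 0.36 and was not called (limma adjusted p = 0.10), but without rat replicate 3 it was 0.47 and called (adjusted p = 0.035). A second, dim Psmd2 probe gave -0.06 and was not called. The ubiquitin receptor gene Psmd4 read 13.62, 13.61, 13.66 and 13.92 with rat IAPP and 13.64, 13.62, 13.58 and 13.58 with human IAPP. These values overlapped, and its difference of -0.10 was not called.

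The 3 base assembly chaperones, which bind the ATPases while the cap is built, were not called, beside 56.4% called among all genes. Psmd10 (gankyrin) read 12.55, 12.56, 12.64 and 12.25 with rat IAPP and 12.66, 12.62, 12.81 and 12.65 with human IAPP, a difference of 0.19 (limma adjusted p = 0.13). Its other probes gave 0.46, called, and 0.27, not called, and the mean over the 3 probes was called (0.31, limma adjusted p = 0.0096). Psmd5 read 8.82, 8.70, 8.85 and 8.91 with rat IAPP and 8.84, 8.88, 8.97 and 9.15 with human IAPP, overlapping values that differed by 0.14. Psmd9 read 8.16, 7.57, 7.58 and 6.98 with rat IAPP and 7.62, 7.36, 7.63 and 7.53 with human IAPP. The rat wells of Psmd9 spread on both sides of the human wells, and its probes differed by -0.04 and 0.45, neither of them called.

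Activators cap the core in place of the 19S cap. Of the 4 measured, 2 rose, 1 fell and the median was 0.05, where 23.8% of all genes were higher and 32.5% lower. Psme1 and Psme2 encode the alpha and beta chains of the same ring, the interferon-inducible PA28. Psme2 read 9.50, 9.61, 9.18 and 9.34 with rat IAPP and 9.92, 9.85, 9.96 and 9.77 with human IAPP. All human wells lay above the rat wells, and Psme2 rose 1.38-fold (log2 difference 0.47, SE 0.101, limma adjusted p = 0.0032). Psme1 read 12.60, 12.66, 12.54 and 12.70 with rat IAPP and 12.64, 12.52, 12.39 and 12.49 with human IAPP. Its wells overlapped, and the difference of -0.11 was not called (95% interval -0.29 to 0.06, limma adjusted p = 0.24).

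Psme3 encodes the nuclear activator PA28 gamma. It read 11.32, 11.12, 11.21 and 11.20 with rat IAPP and 11.40, 11.50, 11.35 and 11.41 with human IAPP. The groups did not overlap and the difference of 0.20 was called (SE 0.072, limma adjusted p = 0.035), but the call was lost without rat replicate 2 or 3 or human replicate 1, 2 or 4 (adjusted p between 0.061 and 0.10). Psme4, the large activator PA200, read 12.30, 12.29, 12.50 and 12.26 with rat IAPP and 12.20, 11.98, 11.95 and 11.81 with human IAPP. All human wells lay below the rat wells, and Psme4 was 1.28-fold lower (log2 difference -0.36, SE 0.098, limma adjusted p = 0.012), with -0.50 on a second probe, also called. With the authors' rescaled values the Psme4 difference was -0.17 (adjusted p = 0.073).

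Of the 2 genes that share only the prefix, Psmc3ip, a partner of meiotic recombination proteins, read 7.05, 6.74, 7.12 and 6.88 with rat IAPP and 6.64, 6.17, 6.60 and 6.12 with human IAPP. Its wells did not overlap, and it fell by 0.57 on the log2 scale (limma adjusted p = 0.0076), although its dim probe was detected on only 2 human arrays. The Psmc3ip difference was -0.15 without background correction (adjusted p = 0.033) and -0.12, not called, on the authors' rescaled values (adjusted p = 0.080). Psme3ip1 differed by 0.00 and was not called.

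Several probes were tested for 14 of the members. For 12 of them all probes had the same sign, the exceptions being Psmd2 and Psmd9, and none had opposite calls. Over all 56 tested member probes 26 were called, 46.4%, with 20 higher and 6 lower. Of the 11451 probes tested 54.4% were called, 24.5% higher and 29.9% lower.

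**Figure D4:**
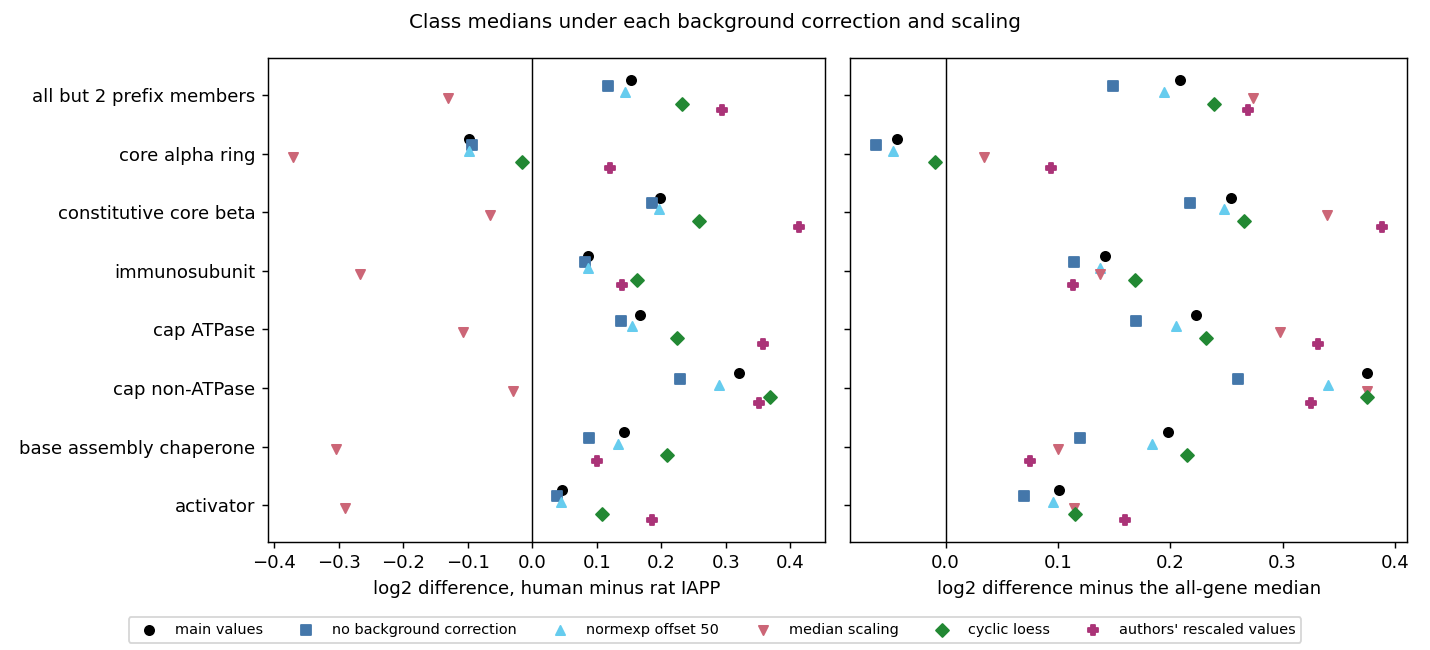
Median log2 difference of each class under the background corrections and scalings tried (left), and the same after subtraction of the median of all genes under that setting (right). On the left, median scaling puts every class below 0. On the right, the non-ATPase cap genes lie above 0 under each setting and the alpha ring lies near 0, between -0.06 and 0.09.

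Genes that assemble, serve or regulate the proteasome were read from lists of known pathway members. Of 5 assembly chaperone genes measured, Psmg1 and Hsp90aa1 rose, by 0.25 and 0.90 (limma adjusted p = 0.024 and 0.00084), and none fell. That compares with 56.4% called among all genes. The Hsp90aa1 probe was dim, though detected on all 8 arrays. Its raw signal was 401 to 492, where the median signal of undetected probes ran from 290.6 to 350.5 per array. Pomp, which guides maturation of the core, read 13.73, 13.86, 13.84 and 13.81 with rat IAPP and 13.96, 13.80, 13.93 and 13.92 with human IAPP, a difference of 0.09 that was not called. Of 10 tested proteasome-bound factors 3 rose and 2 fell, with a median of 0.13, a called share near the 56.4% of all genes. Zfand2a, an arsenite-inducible protein that associates with the proteasome, read 12.62, 12.84, 12.78 and 12.83 in the rat wells and 14.21, 14.28, 14.22 and 14.36 in the human wells. It rose 2.83-fold (95% interval of the log2 difference 1.32 to 1.67, limma adjusted p = 4.6e-07, n = 4 per group), a larger fold than that of any subunit gene. Usp14, a deubiquitinase of the cap, rose by 0.53 (limma adjusted p = 0.0021), and the scaffold gene Ecpas fell by 0.66 (limma adjusted p = 0.00075). No probe was named for the ubiquitin gene Ubb.

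Among 9 tested regulators of proteasome genes 4 rose and 2 fell, with a median of 0.22, beside 56.4% called among all genes. Nfe2l1 read 13.03, 12.83, 12.79 and 12.97 with rat IAPP and 12.71, 12.80, 12.64 and 12.60 with human IAPP, so human replicate 2 lay just above rat replicate 3. Its difference of -0.22 was called (SE 0.08, limma adjusted p = 0.049). Nfe2l2, the factor of the antioxidant response, read 11.25, 11.10, 11.02 and 10.95 with rat IAPP and 11.42, 11.29, 11.39 and 11.57 with human IAPP. The groups did not overlap, and it rose by 0.34 (SE 0.09, limma adjusted p = 0.011). Among the small Maf genes, whose products pair with both factors, Mafg rose by 0.41 (limma adjusted p = 0.0037). Maff, counted among the 4 that rose, was undetected on all 4 rat arrays and detected on all 4 human arrays. It thus passed the detection filter only through the group where it is high, so no p-value is given for it. Its level was at least 5.70-fold higher with human IAPP. For this bound each rat array was given the lowest value of any detected probe on it wherever Maff itself read lower. Irf1, which drives immunosubunit transcription in interferon-treated cells, fell by 0.36 (limma adjusted p = 0.0091). Its groups overlapped, as human replicate 1 (12.483) lay just above rat replicate 4 (12.476). Of 4 tested p97 adaptor genes, Faf2 fell by 0.67 (limma adjusted p = 0.0037) and the others were not called. The share called among all genes was 56.4%.

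Of 9 tested class I antigen-processing genes 1 rose, none fell and the median was -0.03, where 56.4% of all genes were called. B2m, among those not called, lay near the scanner ceiling on 7 of 8 arrays, so its difference is no measure of change. The RefSeq annotation places Psmb9, Tap1, Psmb8 and Tap2 next to one another. Tap1, a chain of the peptide transporter, read 7.77, 8.08, 7.71 and 8.48 with rat IAPP and 7.78, 7.93, 7.99 and 7.62 with human IAPP, a difference of -0.18 that was not called (limma adjusted p = 0.39). Tap2 differed by 0.27 and was not called (limma adjusted p = 0.13). Tapbp, which loads peptides onto class I molecules, read 9.98, 9.95, 9.60 and 10.64 with rat IAPP and 10.51, 10.83, 10.79 and 11.06 with human IAPP. These wells overlapped at rat replicate 4, and Tapbp rose by 0.75 (SE 0.20, limma adjusted p = 0.011).

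The cells carried macrophage transcripts: the 5 macrophage markers on the array, Adgre1, Itgam, Lyz2, Fcgr1 and Mertk, were detected on all 8 arrays. Adgre1, Fcgr1 and Mertk were lower, with log2 differences of -0.47, -1.63 and -1.18, where 32.5% of all genes were lower. Itgam differed by -0.14 and was not called (limma adjusted p = 0.19). Lyz2 lay near the scanner ceiling on all 8 arrays. The summed intensity of the other 4 ran from 27797 to 32785 in rat wells and from 19874 to 22198 in human wells. That sum is linear and mostly Adgre1, whose mean log2 level in rat wells was 14.69, against 10.79 for Mertk, the next brightest. In these bulk samples fewer cells of a type and less RNA per cell cannot be told apart, and the part of this in the proteasome values was not tested. Markers of T cells (3 on the array), B cells (2) and dendritic cells (3) were detected on no array. Of 3 neutrophil markers S100a8 was detected on all arrays and differed by -0.05, not called, Mpo was detected on none, and Elane, detected on 1 rat and 3 human arrays, rose by 0.44. Mean raw signal was lower on the human arrays and rat replicate 4 than on rat replicates 1 to 3, as given above for Psmb8, and precision is limited by having 4 arrays per group.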

How the data were processed

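Per the file headers, the authors deposited a probe intensity table without normalisation between arrays, in linear units, that pairs every signal with a detection p-value. Scanner, software and slides: not given in the sources used here. They also deposited a table of rescaled intensity, linear and not centred, whose columns are each a linear function of the matching array. Its column medians in replicate order are 352.6, 356.6, 353.8 and 361.1 (rat IAPP) and 361.8, 362.9, 359.2 and 367.7 (human IAPP). The method is unknown, and it served only as an alternative.

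With limma 3.58.1 (R 4.3.3), signals were corrected by normexp at an offset of 16, using negative controls that limma derives from detection p-values, then quantile normalised and put on the log2 scale. A probe was tested if detected (p under 0.05) on 4 or more of the 8 arrays, which 11451 were. The brightest tested probe stood for its gene. Symbols came from the platform annotation (23978 probes with 1 symbol, 0 with several, 1719 unlisted), and 23962 were updated through RefSeq GRCm38.p6. The peptides were compared by lmFit and eBayes with no covariate and Benjamini-Hochberg adjustment over all genes or probes tested. Called means an adjusted p under 0.05. The 3 exchange ratios were tested by exact permutation of the 8 wells.

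Members, lists and tests were chosen with earlier results of these data known. Any member could be named. Well values were given for the catalytic, immuno- and activator subunits and, in each class, for the 3 smallest p and the largest rise and fall, with Psmd1 added. In the other lists up to 3 genes with the smallest p were named, besides Pomp, Nfe2l1, Nfe2l2, Tap1 and Ubb, and Tap2 was added after its values were seen. A further gene of the rule is not reported here. Alternatives covered background, scaling, filter, variance model, replicate number as a block, arrays left out, probe choice and threshold. The fit was tested on simulated arrays. No 2 arrays held identical values.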

Additional observations from a re-analysis of the deposited data

Results flagged for a closer look

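Among 80 groups of 4 wells, 1 for each tested member and peptide, 4 held a well that stood apart from the other 3 by Dixon's 95% criterion. The criterion's rate of about 1 in 20 holds for independent groups. These groups share the same 8 arrays, so the count cannot be read against that rate. Rat replicate 4 was the well in 3 of the 4 groups. It was the lowest rat well of Psmc2 at 13.78 and of Psmb1 at 13.09, and the highest rat well of Psmd4 at 13.92. In the human group, replicate 4 was the lowest well of Psma4 at 13.42.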

How the results depend on the processing

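Psmb6, Psmb9, Psmd8 and Psmd12 kept their direction and their call under all 22 alternatives. Their log2 differences ran from 0.55 to 1.03, -1.07 to -0.50, 0.91 to 1.37 and 0.60 to 1.01. Of 460 values of called members under the alternatives, 383 kept direction and call, 71 lost the call and 6 changed sign. Leaving out 1 array gave 17 to 23 called members, 12 to 16 higher and 5 to 7 lower.

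Median scaling left 7 members called, 3 of them higher, and 8 probes, and it put the medians at -0.13 for the 38 genes, -0.37 for the alpha ring, -0.065 for constitutive beta genes, -0.27 for immunosubunits, -0.11 for cap ATPases, -0.029 for cap non-ATPases, -0.31 for base chaperones and -0.29 for activators. Those 7 of 40 members are a smaller share than the 46.7% of all genes called under that scaling. Its median over all genes was -0.40, and relative to that the 38 genes lay at 0.27. The members that changed sign under it were Psma2 (-0.11), Psmb2 (-0.015), Psmb3 (-0.24), Psmb4 (-0.041), Psmb5 (-0.13), Psmb7 (-0.065), Psmb8 (-0.27), Psmb10 (-0.22), Psmc1 (-0.10), Psmc2 (-0.13), Psmc6 (-0.11), Psmd2 (-0.084), Psmd5 (-0.31), Psmd7 (-0.077), Psmd10 (-0.092), Psmd11 (-0.15), Psme3 (-0.18) and Psme3ip1 (-0.42). The authors' rescaled values gave 23 higher and 2 lower, with medians of 0.29 for the 38 genes, 0.12 for the alpha ring, 0.41 for constitutive beta genes, 0.36 for cap ATPases and 0.18 for activators. They turned Psma3 (0.31), Psma4 (0.10), Psma7 (0.12), Psmd4 (0.17) and Psme1 (0.089). Members called higher only there or in few settings were Psma2 (0.39), Psma3, Psmb3 (0.25), Psmb4 (0.45), Psmb5 (0.34), Psmb10 (0.26), Psmc2 (0.36) and Psmd10 (0.38), none of them called in the main fit. Cyclic loess put the median of the 38 genes at 0.23 and turned Psma3 (0.086) and Psmd6 (0.0066), and no background correction put it at 0.12. The cause of these shifts was not tested.

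Probes detected on all 8 arrays gave a cap ATPase median of 0.25. At an adjusted p under 0.01, a stricter threshold by construction, 11 members (7 higher) and 16 probes were called. Among all genes 42.2% passed that threshold, a larger share than the 11 of 40 members. Array weights turned Psmc6 (-0.026), and the mean over probes turned Psmd9 (0.21). That mean gave adjusted exact permutation p of 0.0429 for Psmb9 relative to Psmb6 (-1.43) and for Psmb10 relative to Psmb7 (-0.24). For the former pair value and raw p were those of the brightest probes, and its adjusted p moved only because the latter pair changed rank. Against rat replicate 4 as the only rat array, 3 members were lower, and medians were 0.049 for constitutive beta genes, -0.44 for immunosubunits, 0.44 for cap non-ATPases and 0.46 for base chaperones. Psma3 (0.31), Psmb10 (-0.057), Psmb3 (-0.012), Psmb5 (-0.090), Psmb8 (-0.44), Psmd6 (0.21), Psmd9 (0.51) and Psme3ip1 (-0.18) changed sign there.

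With single arrays left out, the ratio differences ran from -1.51 to -1.38 for Psmb9 relative to Psmb6, -0.18 to -0.018 for Psmb10 relative to Psmb7 and -0.13 to 0.069 for Psmb8 relative to Psmb5. The cap ATPase median ran from 0.13 to 0.24. Members near 0 that crossed it were Psma3 (-0.0998 to 0.052), Psmb3 (-0.016 to 0.066), Psmc6 (-0.063 to 0.23), Psmd6 (-0.13 to 0.046), Psmd9 (-0.24 to 0.15) and Psme3ip1 (-0.046 to 0.093).

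Replicate numbers share only a number: same-numbered wells correlated between -0.13 and 0.16 in their deviations, and only the wells of number 3 correlated best with their own. With the replicate block 17 members were called, 12 higher and 5 lower, and 23 probes, and the calls of Psmb2, Psmb7, Psmc3 and Psme3 were lost. Under that block 53.2% of all genes were called. Dim members such as Psmc6, Psmd2 and Psmd9 had SEs of 0.17 to 0.21, and low signal over background limits them.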
